A study of Mus musculus with 9 samples.

Results

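A set of 10 genes of hedgehog signalling and of the perineurium, out of 36121 genes measured, was followed through sciatic nerves of mice with and without TDP-43 in Schwann cells. TDP-43 is the RNA-binding protein encoded by Tardbp. The members were picked by name and not by a measured value, with earlier results of these data known. They are the ligand gene Dhh, the receptor and membrane genes Ptch1, Hhip and Smo, the transcription factor genes Gli1, Gli2 and Gli3, and the perineurial genes Slc2a1, Cldn1 and Sfrp5. Of these, Sfrp5 was the 1 member that differed between genotypes past the test over all genes. Its mean in cKO nerves was 189% of that in control nerves and 156% of that in cHet nerves. Dhh, Ptch1 and Gli1 had means above control in the cKO nerves and Smo had a mean below it, and none of these differences passed.

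The 9 libraries came from total RNA of sciatic nerves of C57BL6 mice at postnatal day (P) 21, with 1 mouse per library and 3 mice per genotype. The cKO mice carried Cnp-Cre and Tardbp-fl/fl, the cHet mice Cnp-Cre and Tardbp-fl/+, and the control mice Tardbp-fl/fl without Cre, so that floxed Tardbp was common to all groups and Cnp-Cre to the cKO and cHet. Cnp-Cre recombines in Schwann cells and also in oligodendrocytes, so that fibroblasts, perineurial cells and vessels of the nerve are not its stated targets. Each group had 2 females and 1 male. Within a group the nerves are given in the order of the mouse numbers, ID-2744, ID-2747 and ID-2748 for the cKO, ID-2742, ID-2745 and ID-2750 for the cHet, and ID-2743, ID-2746 and ID-2754 for the control.

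Genes with a mean of at least 1 were tested on log2(value + 0.5) with limma, a linear model over all genes, and a gene is said to pass where its p, adjusted by Benjamini-Hochberg over the 15014 genes tested, was under 0.05. A fold change on this scale understates the change of low genes.

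The labels of 3 libraries contradict themselves. ID-2742 is titled cHet with the genotype field Tardbp-fl/fl, and the mice titled cKO as ID-2744 and ID-2747 have the field Cnp-Cre; Tardbp-fl/+. Groups follow the titles, which give 3 mice per genotype where the fields give 4 without Cre, 4 cHet and 1 cKO. Tardbp itself lay between 94.2 and 103 normalized TPM (transcripts relative to library total, per length) in cKO nerves, between 177 and 186 TPM in cHet nerves and between 185 and 217 TPM in control nerves, or -0.98 on the log2 scale between cKO and control (adjusted p = 0.0022 from limma). Both libraries titled cKO with a cHet field thus lay with ID-2748, below all cHet and control nerves. Of the cell type marker lists, that of myelinating Schwann cells (8 genes) had the highest sum in every library. Its sums were 75539 to 105307 TPM in the cKO, 93389 to 131849 in the cHet and 100279 to 128341 in the control. Of these 8 genes, 0 passed in any comparison. Some libraries stood apart in the RNA of other tissues. The summed level of 9 skeletal muscle markers was 216 to 8517 TPM in the cKO, 24.6 to 279 in the cHet and 48.7 to 16260 in the control, and that of 8 adipocyte markers was 301 to 359 TPM in the cKO, 50.9 to 468 in the cHet and 78.9 to 2725 in the control. Neuron markers (9 genes) summed to 321 to 1631 TPM in the cKO, 175 to 1473 in the cHet and 173 to 3788 in the control, highest in ID-2746.

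Desert hedgehog is secreted by Schwann cells and received by mesenchymal cells around the nerve fibres, where it is known to be needed for the perineurium, the layered sheath that encloses each fascicle and forms the blood-nerve barrier with the endoneurial vessels. In a receiving cell the ligand binds Ptch1, which releases Smo from inhibition, and Smo then acts through the Gli factors at the primary cilium. Ptch1, Hhip and Gli1 are themselves transcribed in response to the signal and are widely read as its targets. Perineurial cells are joined by tight junctions that contain claudin-1 (Cldn1) and take up glucose through GLUT1 (Slc2a1). Sfrp5 encodes a secreted Frizzled-related protein that binds Wnt ligands, and it is grouped here with the perineurial genes.

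Promoter sequences are shown for Sfrp5, the member that rose, and Ptch1, the target gene with the highest fold change among the hedgehog members tested. That of Cldn1, the barrier gene that varied most among the perineurial members, is also shown. The values below are per gene and are not split by start. Each window runs from 250 bases before to 50 after the RefSeq start in GRCm38.p6, 5′ to 3′ on the minus strand, with each GC box (GGGCGG or CCGCCC) in capitals.
Sfrp5, chr19:42202203-42202502: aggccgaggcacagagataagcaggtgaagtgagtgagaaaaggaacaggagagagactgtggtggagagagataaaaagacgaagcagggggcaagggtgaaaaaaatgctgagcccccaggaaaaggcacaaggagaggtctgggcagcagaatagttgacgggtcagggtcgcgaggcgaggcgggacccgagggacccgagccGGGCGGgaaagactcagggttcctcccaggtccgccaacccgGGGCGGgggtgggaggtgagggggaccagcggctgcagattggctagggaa
Ptch1, chr13:63565686-63565985: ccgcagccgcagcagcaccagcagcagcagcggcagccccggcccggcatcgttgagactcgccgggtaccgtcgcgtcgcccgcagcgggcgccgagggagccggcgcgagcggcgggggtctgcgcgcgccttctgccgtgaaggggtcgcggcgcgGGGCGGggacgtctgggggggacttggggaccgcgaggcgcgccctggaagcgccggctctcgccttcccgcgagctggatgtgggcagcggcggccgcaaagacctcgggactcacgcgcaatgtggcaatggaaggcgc
Cldn1, chr16:26371790-26372089: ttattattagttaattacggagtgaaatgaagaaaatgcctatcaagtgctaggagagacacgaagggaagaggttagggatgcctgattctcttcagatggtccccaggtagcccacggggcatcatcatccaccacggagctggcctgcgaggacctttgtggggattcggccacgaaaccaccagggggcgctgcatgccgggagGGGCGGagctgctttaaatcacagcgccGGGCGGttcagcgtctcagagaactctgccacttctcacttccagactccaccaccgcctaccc
These windows hold 2, 1 and 2 GC boxes, and their GC content is 61.3%, 76.3% and 56.0%. RefSeq windows were matched for 9 of the 10 members, and 8 of the 9 contained a GC box on either strand, against 35.7% of all 32851 promoter windows. The 9-base GLI motif GACCACCCA (TGGGTGGTC on the other strand) occurred in 0 of the 9 and in 0.253% of all windows, which says only that these letters were not in these windows. The Ptch1 start used lies within the longer gene of GENCODE M21, which spans chr13:63508328-63573598.

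**Figure D1:**
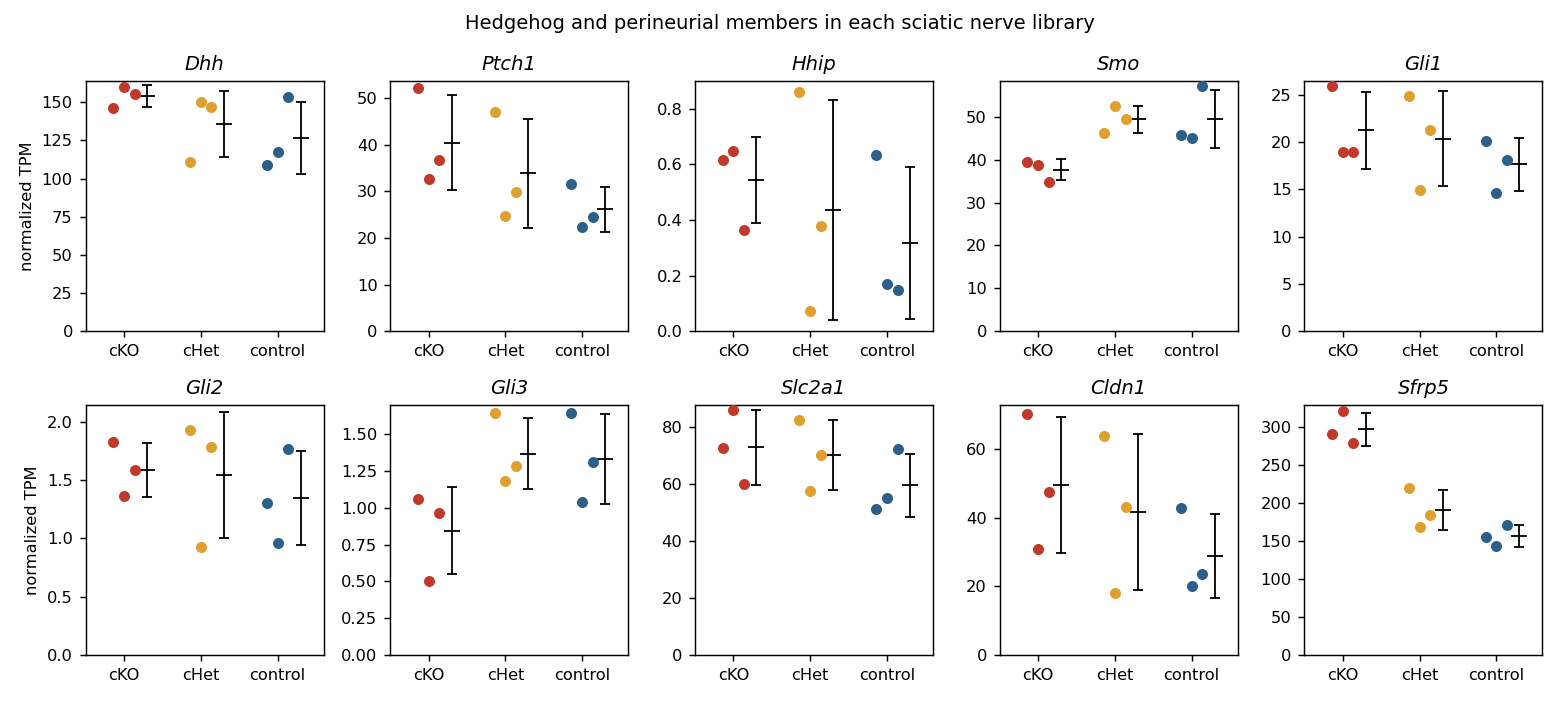
Normalized TPM of the 10 members in each sciatic nerve library, in the order cKO, cHet and control, and beside them the mean and SD of 3 mice; each panel has its own axis from 0. Sfrp5 at 279 to 320.5 in the cKO nerves lies above every cHet and control nerve, Smo at 34.8 to 39.4 lies below them, and the other members overlap between the cKO and at least 1 of the other groups.

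Dhh, the ligand that Schwann cells secrete, was among the most abundant members in every genotype and did not differ past the test. Its values were 146, 160.0 and 156 TPM in the cKO nerves, 111, 150.0 and 147 TPM in the cHet nerves and 109, 118 and 154 TPM in the control nerves. The cKO nerves were close to one another, whereas 1 cHet nerve and 2 control nerves lay below all of them and the other nerves fell within the cKO range. The mean was 154 ± 7.18 TPM in cKO, 136 ± 21.6 TPM in cHet and 127 ± 23.7 TPM in control nerves (SD, n = 3 each). On the log2 scale the cKO differed from the control by 0.29 (SE, the standard error, 0.16, 95% confidence interval -0.06 to 0.65, adjusted p = 0.494 from limma), so that the interval reaches below 0 and the groups overlapped (exact permutation test, two-sided, p = 0.2). In a bulk nerve library, fewer cells of a type and less RNA per cell cannot be told apart, here and for every member below. Dhh (ENSMUSG00000023000) lies on the minus strand at chr15:98891152-98898540 of GRCm38, where Rhebl1 overlaps it on the same strand, so that reads shared by the pair may have been split by the quantification.

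Ptch1, the Dhh receptor and a target of the pathway, was higher in every cKO nerve than in every control nerve. The cKO nerves had 52.1, 32.6 and 36.7 TPM, the cHet nerves 47.1, 24.7 and 29.8 TPM, and the control nerves 31.6, 22.4 and 24.4 TPM. The lowest cKO nerve stood just above the highest control nerve, 32.6 against 31.6 TPM, and the highest value of the cHet group exceeded 2 of the 3 cKO values. Means were 40.5 ± 10.3 TPM in cKO, 33.9 ± 11.7 TPM in cHet and 26.1 ± 4.87 TPM in control nerves (SD, n = 3 each). The log2 fold change of cKO against control was 0.61 (SE 0.26, 95% confidence interval 0.01 to 1.21), which failed to pass over all genes (adjusted p = 0.376 from limma). The exact permutation test gave p = 0.1, the smallest that 3 mice against 3 allow. Among all tested genes, 17.4% had cKO and control groups that did not overlap, 8.85% with the cKO higher and 8.57% with it lower. Ptch1 (ENSMUSG00000021466) lies on the minus strand of chromosome 13.

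Smo, the membrane protein that carries the signal inward once Ptch1 is occupied, ran the other way. It was at 39.4, 38.7 and 34.8 TPM in the cKO nerves, 46.3, 52.6 and 49.5 TPM in the cHet nerves and 45.9, 45.2 and 57.3 TPM in the control nerves. Every cKO nerve was below every nerve of the other genotypes, and the cHet and control nerves overlapped. The cKO mean of 37.6 ± 2.47 (SD, n = 3) was 76.2% of the control mean of 49.4 ± 6.79 (SD, n = 3) and 76.1% of the cHet mean of 49.4 ± 3.13 (SD, n = 3). The log2 fold change was -0.38 against control (95% confidence interval -0.64 to -0.13, adjusted p = 0.173 from limma) and -0.39 against cHet (95% confidence interval -0.64 to -0.13, adjusted p = 0.154 from limma). Neither passed the test, and each exact permutation test gave p = 0.1, the smallest possible. The sign was the same in all 24 alternatives of the processing for both comparisons, and neither passed in any of them. Smo (ENSMUSG00000001761) lies on the plus strand at chr6:29735503-29761365.

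Hhip, a decoy receptor that binds hedgehog ligands and is itself induced by them, was at the edge of detection. Its values were 0.615, 0.649 and 0.365 TPM in the cKO nerves, 0.859, 0.0743 and 0.379 TPM in the cHet nerves and 0.634, 0.171 and 0.147 TPM in the control nerves. The values differed as much within the cHet group as among all 9 nerves. Hhip (ENSMUSG00000064325, minus strand at chr8:79965851-80058006) was below the minimum mean of 1 TPM and was left out of the main test. In a fit without that minimum, over 26578 genes, its log2 difference of cKO from control was 0.39 (95% confidence interval -0.41 to 1.19, adjusted p = 0.802 from limma). No change was detectable at these levels, and the counting error behind them is unknown because TPM keep no depth.

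The Gli genes stood at unequal levels. Gli1, an activator and the target most often read out for the pathway, was the most abundant of them, with 25.9, 18.9 and 18.9 TPM in the cKO nerves, 24.9, 15.0 and 21.2 TPM in the cHet nerves and 20.1, 14.7 and 18.1 TPM in the control nerves. The highest nerve of each genotype exceeded the lowest of every other, so that the groups overlapped throughout. The Gli1 means were 21.2 ± 4.03 TPM in cKO, 20.4 ± 5.03 TPM in cHet and 17.6 ± 2.77 TPM in control nerves (SD, n = 3 each). The log2 fold change of cKO against control was 0.26 (95% confidence interval -0.23 to 0.74, adjusted p = 0.700 from limma). Gli1 (ENSMUSG00000025407) lies on the minus strand at chr10:127329882-127341974 and overlaps Arhgap9 on the opposite strand, and whether reads were assigned by strand is not given in the sources used here.

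Gli2, the main activator at the start of a response, and Gli3, which serves largely as a repressor in the absence of ligand, both lay near 1 TPM. Gli2 was at 1.82, 1.36 and 1.58 TPM in the cKO, 1.93, 0.925 and 1.79 TPM in the cHet and 1.31, 0.961 and 1.77 TPM in the control, or 0.20 on the log2 scale between cKO and control (adjusted p = 0.863 from limma). Gli3 was at 1.06, 0.505 and 0.967 TPM in the cKO, 1.64, 1.18 and 1.28 TPM in the cHet and 1.64, 1.04 and 1.31 TPM in the control. The Gli3 values of the cKO nerves lay below all cHet nerves and below 2 of the 3 control nerves. Its log2 fold change was -0.46 against control (95% confidence interval -1.12 to 0.20, adjusted p = 0.579 from limma) and -0.49 against cHet (95% confidence interval -1.15 to 0.17, adjusted p = 0.489 from limma). The pseudocount of 0.5 TPM understates fold changes at such levels. With a minimum mean of 5 TPM neither gene was tested. Gli2 (ENSMUSG00000048402) lies on the minus strand at chr1:118834132-119053619 and Gli3 (ENSMUSG00000021318) on the plus strand at chr13:15463235-15730026.

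Sfrp5, the secreted Wnt antagonist grouped with the perineurium, was the member that rose in the cKO nerves. It stood at 291, 320.5 and 279 TPM in the cKO nerves, at 219, 168 and 185 TPM in the cHet nerves and at 156, 143 and 172 TPM in the control nerves. Every cKO nerve was above every cHet and control nerve, with the nearest pair at 279 TPM for cKO and 219 TPM for cHet, and the cHet nerves overlapped the control nerves. The mean was 297 ± 21.2 TPM in cKO, 191 ± 25.9 TPM in cHet and 157 ± 14.4 TPM in control nerves (SD, n = 3 each). Against control it was 0.92 higher on the log2 scale (SE 0.12, 95% confidence interval 0.65 to 1.20, adjusted p = 0.0108 from limma). Of the 9 members tested in this comparison 1 rose and 0 fell, where 1.57% of all tested genes passed, 0.932% higher and 0.633% lower. Against cHet it was 0.64 higher (SE 0.12, 95% confidence interval 0.37 to 0.92, adjusted p = 0.0405 from limma), with 1 of 9 members higher and 0 lower beside 1.71% of all tested genes, 0.932% higher and 0.773% lower.

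The Sfrp5 difference from control kept its sign in 24 of 24 alternatives, with log2 fold changes of 0.84 to 1.05, and passed in 18 of them. Leaving out 1 library at a time it passed in 8 of 9 fits and was lost without cKO mouse ID-2744 (0.93, adjusted p = 0.0578 from limma). Without the 3 libraries whose labels conflict, which leaves 1 cKO nerve that is assumed to vary like the other groups, the log2 fold change was 0.84 (adjusted p = 0.419 from limma). Without the libraries highest in neuron markers (1 of each group) it was 0.90 (adjusted p = 0.117), and without those highest in muscle (ID-2743 and ID-2748) 0.96 (adjusted p = 0.121). Without those highest in adipocyte markers (ID-2743 and ID-2754, which leaves 1 control nerve) it was 1.05 (adjusted p = 0.126), and without those highest in perineurial markers (ID-2742 and ID-2744) 0.93 (adjusted p = 0.0788), all from limma. The difference was thus of about the same size without these libraries, and its adjusted p was above 0.05. The difference from cHet was less firm and passed in 6 of 24 alternatives, with log2 fold changes of 0.50 to 0.79 and adjusted p from 0.0385 to 0.531 by limma. With 1 library left out it passed without cHet ID-2742 or control ID-2754 and had adjusted p up to 0.167 with any other library left out. Sfrp5 (ENSMUSG00000018822) lies on the minus strand at chr19:42197971-42202252 of GRCm38, with no overlapping gene in GENCODE M21.

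Between cHet and control, Sfrp5 had a log2 fold change of 0.28 (95% confidence interval 0.00 to 0.55), with an unadjusted p of 0.0484 and an adjusted p of 1.0 from limma. No member passed in this comparison, and neither did any of the 15014 genes tested (0.0 percent by limma). At an unadjusted p under 0.05 there were 408 genes, 2.72% of all tested, and Sfrp5 was the 1 member among them. All 9 members tested had a positive log2 fold change of cHet against control, with a median of 0.18, beside -0.03 over all genes. Those of Smo (0.007) and Gli3 (0.04) were near 0. ID-2742, a library with conflicting labels, was the highest cHet nerve for Ptch1, Gli1, Gli2, Gli3, Slc2a1, Cldn1 and Sfrp5. It was the lowest for Dhh and Smo. Without ID-2742 the differences of Gli2 and Gli3 were slightly negative, so that the shared sign rested on this nerve. In no member did the cHet and control groups stand apart, and among all tested genes 7.1% did, 2.69% higher and 4.41% lower.

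**Figure D2:**
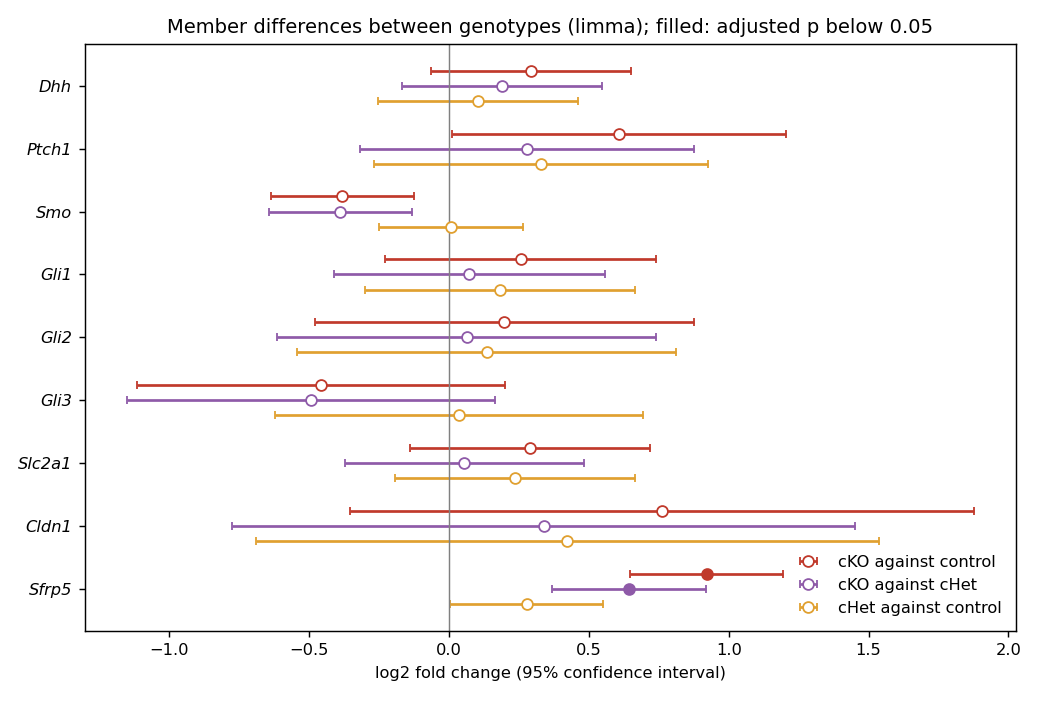
Log2 fold changes of the 9 tested members from limma with 95% confidence intervals, for cKO against control, cKO against cHet and cHet against control; filled points passed an adjusted p of 0.05. Sfrp5 at 0.92 against control and 0.64 against cHet has the filled points, and the intervals of Ptch1 (0.01 to 1.21) and Smo (-0.64 to -0.13) against control exclude 0 without passing.

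Slc2a1 and Cldn1, the other perineurial members, did not pass. Slc2a1 was at 72.7, 85.9 and 59.8 TPM in the cKO nerves, 82.3, 57.6 and 70.2 TPM in the cHet nerves and 51.2, 55.1 and 72.1 TPM in the control nerves. The groups overlapped, and the log2 fold change of cKO against control was 0.29 (95% confidence interval -0.14 to 0.72, adjusted p = 0.590 from limma). Slc2a1 is also expressed by the endothelium of barrier vessels. The summed level of 8 endothelial markers was 131 to 208 TPM in the cKO, 188 to 212 in the cHet and 169.5 to 212 in the control, and its part in the Slc2a1 values was not tested. Cldn1, the claudin of the perineurial barrier, was at 70.3, 30.7 and 47.4 TPM in the cKO nerves, 63.8, 18.2 and 43.1 TPM in the cHet nerves and 42.9, 20.2 and 23.7 TPM in the control nerves. Cldn1 varied more than any other tested member, 3.86 times between its lowest and highest nerve, and most of that spread lay within the genotypes. On the log2 scale its cKO differed from control by 0.76 (SE 0.49, 95% confidence interval -0.35 to 1.88, adjusted p = 0.586 from limma). Its groups overlapped (exact permutation test, two-sided, p = 0.2). Slc2a1 (ENSMUSG00000028645) lies on the plus strand at chr4:119108711-119137983 and Cldn1 (ENSMUSG00000022512) on the minus strand at chr16:26356642-26371841.

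As a group, the median of the 9 tested members in the cKO against control was 0.29 on the log2 scale, beside -0.02 over all genes tested, with 7 positive and 2 negative. The positive values were those of Dhh, Ptch1, Gli1, Gli2, Slc2a1, Cldn1 and Sfrp5, and the negative ones those of Smo and Gli3. Each kept its sign in every alternative that tested it. The cKO and control groups did not overlap for 3 members of the 9 tested, Ptch1 and Sfrp5 being higher and Smo lower, where 17.4% of all tested genes did not overlap, 8.85% higher and 8.57% lower. Against cHet the median was 0.07, beside 0.02 over all genes, and the groups did not overlap for Sfrp5 (higher), Smo and Gli3 (both lower), where 24.3% of all tested genes did not overlap, 13.3% higher and 11% lower. These comparisons share their cKO libraries.

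In TPM, which is per length, the order of levels in the control nerves was Sfrp5 (157), Dhh (127), Slc2a1 (59.4), Smo (49.4), Cldn1 (28.9), Ptch1 (26.1), Gli1 (17.6), Gli2 (1.34), Gli3 (1.33) and Hhip (0.317). Ranges of neighbours overlapped between Sfrp5 and Dhh, between Slc2a1 and Smo, between Cldn1 and Ptch1 and between Gli2 and Gli3, and were separate at the other steps. In the cKO nerves Sfrp5 and Dhh were separate, at 279 to 320.5 and 146 to 160.0 TPM, and in the cHet nerves likewise. Smo held rank 4 in the control and rank 6 in the cKO, where its range overlapped those of Ptch1 and Cldn1. In the cKO nerves Gli3 at 0.844 ± 0.297 TPM (SD, n = 3) was separate from Gli2 at 1.59 ± 0.231 (SD, n = 3) and overlapped Hhip at 0.543 ± 0.155 (SD, n = 3).

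Across the 9 nerves the target genes Ptch1 and Gli1 varied together, and no relation of a target gene to the ligand passed. Ptch1 and Gli1 had a Pearson's r of 0.90 over their log2 values (exact permutation p = 0.00204, adjusted p = 0.0122 over 6 relations) and a Spearman's rho of 0.83 (exact permutation p = 0.00827, adjusted p = 0.0496). Without ID-2742 and ID-2744, the nerves farthest from the median of Ptch1, r was 0.73 (exact permutation p = 0.0728), so that the relation at this threshold rested on them. Within genotypes, taking deviations from the group means, r was 0.92. For Dhh, r was -0.09 to Ptch1, -0.14 to Gli1 and -0.34 to Hhip (exact permutation p = 0.823, 0.709 and 0.354; adjusted p = 0.823, 0.823 and 0.531), and rho was -0.05, -0.33 and -0.30 (exact permutation p = 0.912, 0.385 and 0.437). Leaving out the 2 nerves farthest from the median of Dhh, ID-2742 and ID-2743, turned these r to 0.38, 0.39 and 0.34 (exact permutation p = 0.369, 0.391 and 0.545). Within genotypes, over deviations from the group means, the r of Dhh was -0.72 to Ptch1, -0.48 to Gli1 and -0.76 to Hhip, further from 0 than over the nerves as they stand. The sign of r for Dhh thus depended on which nerves were used, and its size on the centring. Cldn1 had r of 0.35 with Slc2a1 and 0.55 with Sfrp5 (exact permutation p = 0.345 and 0.130; adjusted p = 0.531 and 0.389), with rho of 0.43 and 0.62 (exact permutation p = 0.250 and 0.0857). Without ID-2745 and ID-2746 these r were -0.04 and 0.28, and within genotypes they were 0.15 and 0.43.

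**Figure D3:**
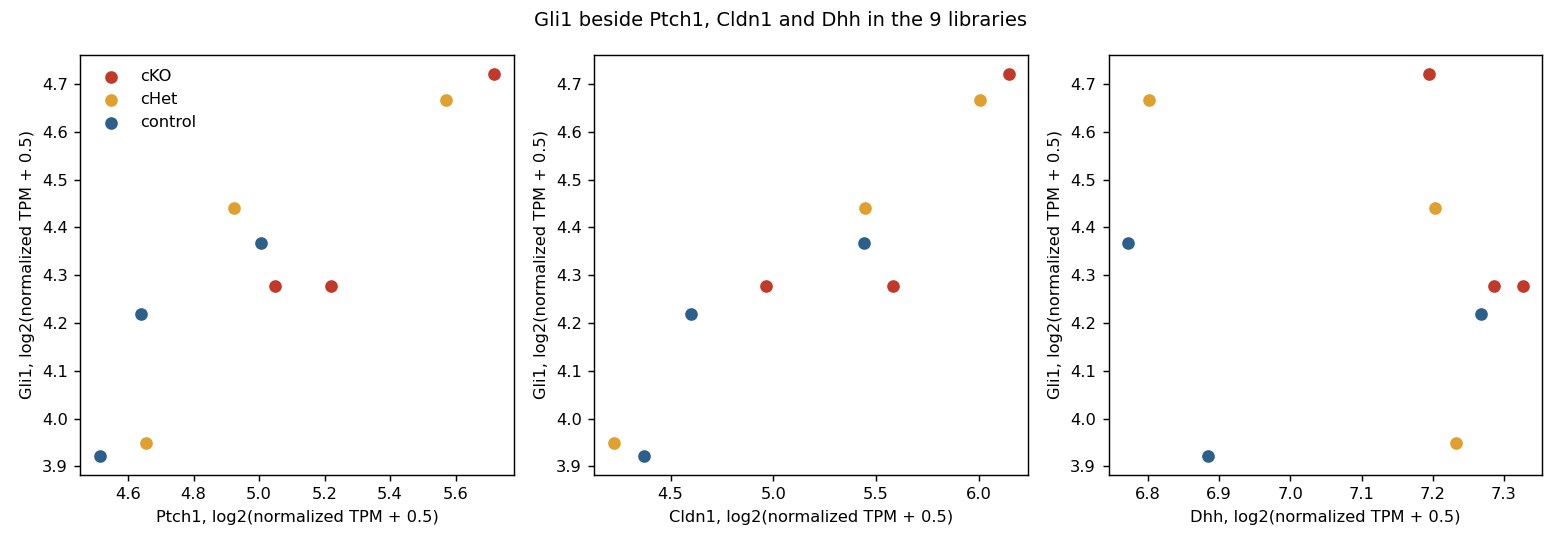
Log2(normalized TPM + 0.5) of Gli1 against Ptch1, Cldn1 and Dhh, 1 point per sciatic nerve library coloured by genotype. Gli1 follows Ptch1 (r = 0.90) and Cldn1 (r = 0.94) over the 9 nerves, with 1 cKO and 1 cHet nerve at the upper right, and has an r of -0.14 with Dhh.

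The genes most like Gli1 over the 9 nerves, by Pearson's r of log2 values among 14800 tested genes with a symbol, were Fzd2 (0.98), C2 (0.97), Pear1 (0.97) and Kcnj13 (0.96). For Cldn1 they were Fzd2 (0.97), Ocln (0.96), Nfkbiz (0.96) and Mpzl2 (0.96). Fzd2 encodes a Wnt receptor and Ocln occludin, a tight junction protein. For Dhh they were Frmd8 (0.97), Il17rb (0.97), Otud7b (0.96) and Iqgap2 (0.96). Barrier and perineurial genes ranked high with Gli1, among them Ocln (rank 5), Krt19 (12), Msln (13), Cldn1 (17, r = 0.94), Perp (21) and F11r (27), above Ptch1 (43). Of these 14800 genes, Cldn1 had Ptch1 at rank 22 and Gli1 at rank 15. Dhh had Ptch1 at rank 7075 and Gli1 at rank 7617. Other genes of the pathway and barrier lists ranked high with Dhh, among them Lama5 (rank 64, r = 0.89), Evc2 (144), Csnk1a1 (192) and Evc (222). Others ranked low with it, among them Gpr161 (14174) and Moxd1 (14185). These are descriptions over 9 nerves that share dissection and library preparation.

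The nerves highest in Gli1, Ptch1 and Cldn1, cHet ID-2742 and cKO ID-2744, were also highest in some of the other perineurial markers. Over the 9 markers of the perineurial cell that are not members (Itgb4, Lypd2, Msln, Moxd1, Wnt6, Ntn4, Krt19, Perp and Tenm2), the mean log2 level was highest in cHet ID-2742 and cKO ID-2744, 0.67 and 0.40 above the median nerve, and lowest in cHet ID-2745, -0.52. All 9 were detected in every library. ID-2742 and ID-2744 were the highest pair of nerves for Lypd2, Msln, Ntn4, Krt19 and Perp, and were not for Itgb4, Moxd1, Wnt6 and Tenm2. Itgb4 was at 132 TPM in ID-2744 and 131 TPM in ID-2742, beside 151 TPM in cHet ID-2750 and 177 TPM in control ID-2754. Wnt6 was highest in ID-2745, at 28.5 TPM, and stood at 23.97 TPM in ID-2744 and 26.3 TPM in ID-2742. The summed level of the 9 was 217 to 307 TPM in the cKO, 238 to 348 in the cHet and 195 to 275 in the control, and 0 of 9 passed in any comparison, with median log2 fold changes of 0.50 for cKO against control, -0.16 for cKO against cHet and 0.29 for cHet against control. In the cKO against control 5 of the 9 had positive values and 4 negative ones, Itgb4 (-0.15), Moxd1 (-0.21), Wnt6 (-0.25) and Ntn4 (-0.04). Perp was higher and Wnt6 lower in every cKO nerve than in every control nerve. Among all tested genes 8.85% were higher and 8.57% lower in this way. Set against the mean of these markers in the same nerve, Gli1 differed by -0.01 on the log2 scale between cKO and control, with overlapping groups. Ptch1 relative to the markers was 1.16, 1.22 and 1.01 in the cKO and 0.85, 0.67 and 0.84 in the control, which did not overlap. Cldn1 relative to the markers was higher by 0.50 in the cKO than in the control, with overlapping groups. Sfrp5 relative to the markers was 3.63, 4.50 and 3.92 in the cKO, 2.95, 3.76 and 3.27 in the cHet and 3.13, 3.31 and 3.62 in the control. The lowest cKO nerve for Sfrp5 stood 3.63 against 3.62 in the highest control nerve, so that the groups just failed to overlap, and the cKO and cHet groups overlapped. The share of all genes that did not overlap on this relative scale was not computed.

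**Figure D4:**
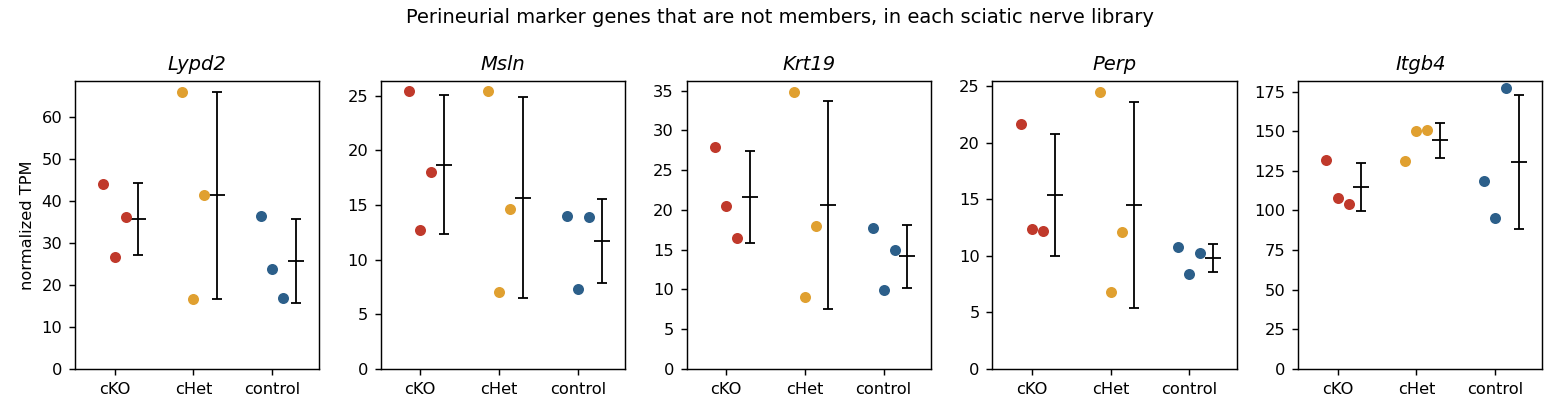
Normalized TPM of 5 perineurial markers that are not members (Lypd2, Msln, Krt19, Perp and Itgb4) in each sciatic nerve library, in the order cKO, cHet and control, with the mean and SD of 3 mice. For the first 4 of these markers the cHet nerves range widely (Lypd2 at 16.7 to 66.0) and overlap the cKO and control nerves, and Itgb4 overlaps between all genotypes.

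Among 23 perineurial and barrier genes, members included, 21 were tested and Sfrp5 was the 1 that rose in the cKO against control, with 0 lower and 20 that did not pass, where 0.932% of all tested genes rose and 0.633% fell. Of the 21, 16 had positive and 5 negative values, with a median log2 fold change of 0.31, or 0.19 over the 18 that are not members, beside -0.02 over all genes. Vim, an intermediate filament gene of mesenchymal and Schwann cells, had 1897, 2164 and 1776 TPM in the cKO, 1163, 1444 and 1379 TPM in the cHet and 1359.6, 1275 and 1574 TPM in the control. The cKO nerves lay above all others, with a log2 fold change of 0.47 against control that did not pass (adjusted p = 0.190 from limma). Among the tight junction genes, Tjp1, Ocln, F11r and Cgn showed log2 fold changes of 0.06, 0.36, 0.51 and 0.07, at adjusted p of 0.596 to 0.963 from limma. In the cHet against control 0 of 21 passed, with a median of 0.19, and in the cKO against cHet 1 did (Sfrp5), with a median of 0.03.

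Of the wider hedgehog pathway, 45 genes with members included, 39 were tested, and in the cKO against control 1 rose, 1 fell and 37 did not pass, where 0.932% of all tested genes rose and 0.633% fell. Their median log2 fold change was 0.01, beside -0.02 over all genes, with 20 positive and 19 negative. Scube1, which encodes a secreted protein of the family that helps lipid-modified hedgehog ligands leave the cell, rose. It had 29.7, 27.1 and 33.9 TPM in the cKO nerves, 11.6, 16.9 and 16.8 TPM in the cHet nerves and 12.6, 11.8 and 15.6 TPM in the control nerves. Each cKO nerve was well above every other nerve. It differed by 1.15 on the log2 scale against control (SE 0.17, adjusted p = 0.0183 from limma) and 0.99 against cHet (adjusted p = 0.0311 from limma). The first passed in 14 of 24 alternatives, with adjusted p up to 0.358. With 1 library left out it passed without any cHet nerve or control ID-2754, and had adjusted p up to 0.0919 without any cKO nerve or control ID-2743 or ID-2746. The second passed in 7 of 24 alternatives, among them the fits without control ID-2746 or ID-2754.

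Spop, which encodes the substrate adaptor of a ubiquitin ligase that turns over Gli2 and Gli3, fell. It had 122, 166 and 132 TPM in the cKO nerves, 208, 288 and 235 TPM in the cHet nerves and 228, 302 and 320.2 TPM in the control nerves. All cKO nerves lay below all nerves of the other genotypes. Its cKO level averaged 49.4% of control, or -1.01 on the log2 scale (SE 0.18, adjusted p = 0.0355 from limma), a difference that passed in 9 of 24 alternatives. With 1 library left out it passed without cHet ID-2742 or ID-2745 or control ID-2743, and had adjusted p up to 0.142 with any other library left out. Against cHet it was -0.79 (adjusted p = 0.0755 from limma).

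Shh, the sonic hedgehog ligand, had the widest difference of the pathway without passing. It was at 7.97, 8.06 and 16.3 TPM in the cKO nerves, 1.53, 0.406 and 0.947 TPM in the cHet nerves and 0.520, 4.70 and 0.353 TPM in the control nerves. All cKO nerves were above all others, and 1 control nerve, ID-2746, stood far above the other control nerves. The log2 fold change of cKO against control was 2.69 (SE 0.67, 95% confidence interval 1.16 to 4.22, adjusted p = 0.110 from limma) and that against cHet 2.94 (adjusted p = 0.0780 from limma). Without ID-2746 the first was 3.52 and passed (adjusted p = 0.0157 from limma), which was the 1 alternative of 23 in which it did. ID-2746 also had the highest sum of neuron markers, 3788 TPM. Among the cKO nerves, ID-2744 and ID-2747 had Shh at 7.97 and 8.06 TPM with neuron sums of 321 and 358 TPM, and ID-2748 had 16.3 TPM with a sum of 1631 TPM. In cHet ID-2742, Shh was at 1.53 TPM with a neuron sum of 1473 TPM. The part of neuronal RNA in the Shh values was not tested.

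Evc2, which encodes a ciliary membrane protein that passes the signal on from Smo, was at 72.8, 89.8 and 64.6 TPM in the cKO, 40.7, 54.0 and 56.8 TPM in the cHet and 44.1, 45.3 and 60.2 TPM in the control. The cKO nerves lay above all others, and the log2 fold change against control of 0.60 did not pass (adjusted p = 0.187 from limma). Scube3 (0.65, adjusted p = 0.270) and Kif7, a ciliary kinesin that regulates the Gli factors (-0.40, adjusted p = 0.326), likewise did not overlap with control and did not pass by limma. In all, 8 of the 45 genes were higher and 4 lower in every cKO nerve than in every control nerve, including Foxl1 (higher) and Lrp2 (lower), which were below the minimum mean and not tested. Among the 39 tested these counts were 7 higher and 3 lower, beside 8.85% higher and 8.57% lower over all tested genes. In the cHet against control 0 of the 39 passed, and in the cKO against cHet 1 (Scube1) did.

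**Figure D5:**
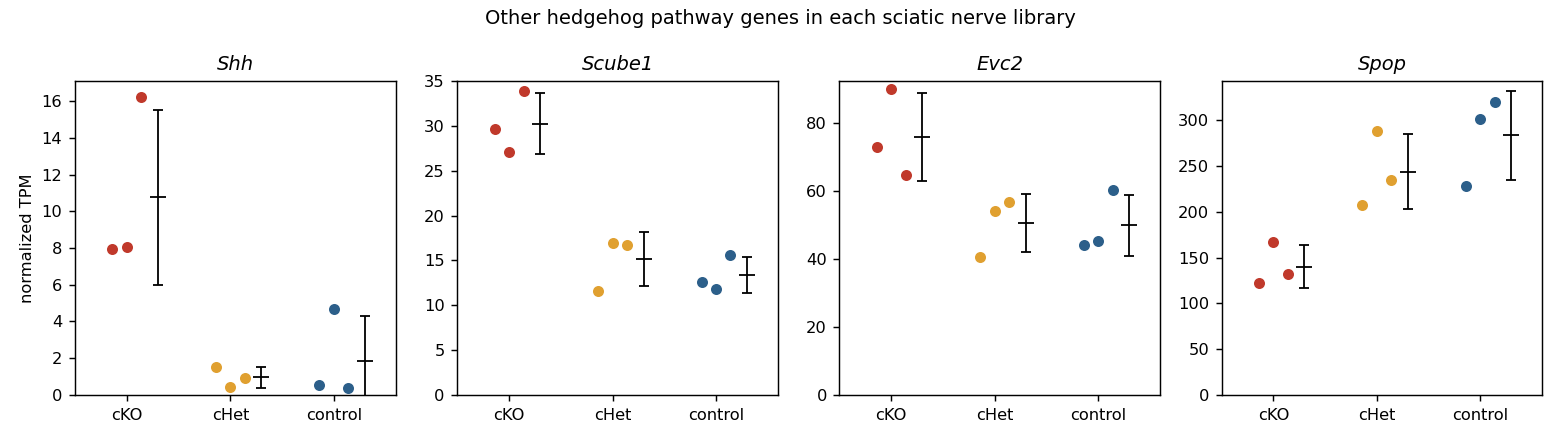
Normalized TPM of Shh, Scube1, Evc2 and Spop in each sciatic nerve library, in the order cKO, cHet and control, with the mean and SD of 3 mice; each panel has its own axis from 0. The cKO nerves lie above the others for Shh (7.97 to 16.3), Scube1 (27.1 to 33.9) and Evc2 (64.6 to 89.8) and below them for Spop (122 to 166), and of these 4 Scube1 and Spop passed the test against control.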

How the data were processed

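Sciatic nerve RNA of 9 mice was measured, 3 per genotype. The deposited table gives a signal in normalized TPM for 36121 genes in each library. Per the submitters' processing notes the tools were sleuth 0.30.0 and kallisto 0.44.0, on GRCm38; for strandedness, annotation release and scaling, the sources used here give nothing. Libraries sum to 934932 to 1158094, so that the TPM were scaled further, and TPM keep no depth, so that counting errors are unknown. The study describes sets of mice of the 3 genotypes, matched by age and taken from 1 litter or from a pair of litters born close together. Which of these 9 mice formed a set, and whether mice of a group came from separate litters, is not given in the sources used here, so that no set entered the fits. Pearson's r over log2 values of all genes was 0.968 to 0.990 for the 9 pairs within a group and 0.973 to 0.990 for the 27 pairs between groups, and no pair was identical.

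Symbols came from the Ensembl identifiers (35471 genes matched), and positions from GENCODE M21. Genes with a mean of at least 1 were tested (15014) on log2(value + 0.5), which understates changes of low genes, by limma 3.58.1 under R 4.3.3 (a linear model of all 9 libraries, contrasts, and eBayes with trend), adjusted by Benjamini-Hochberg over all of them, at a threshold of 0.05. Every adjusted p of a gene comes from limma. Single members were also tested with two-sided exact permutation tests (SciPy 1.17.1, Python 3.11.15), which cannot go below 0.1. The fit was tested on simulated data. Promoter windows are those of RefSeq in GRCm38.p6; that of Gli1 is named only.

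The members, the gene lists, the markers and the tests were chosen with earlier results of these data known. Genes named are the members, listed genes past the threshold in any comparison, and the 4 genes most like Dhh, Gli1 and Cldn1. Shh, Evc2, Scube3, Kif7, Vim, Foxl1, Lrp2, the tight junction genes, the ranked genes and the single markers were named after their values were seen. Disp1, Gas1 and Ihh were named outside these rules as well. The alternatives were pseudocounts of 0.1 and 1, no minimum or one of 5, same sum, median of ratios and quantile scaling, robust eBayes, 2 groups only, sex as a covariate, each library left out, and sets of libraries left out, of which those high in muscle, adipocyte and perineurial markers were added after seeing the data.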

Additional observations from a re-analysis of the deposited data

Results flagged for a closer look

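For some members the difference from control had opposite signs in females (2 per group) and in males (1 per group), with every cKO or cHet female above every control female and the cKO or cHet male below the control male. These differences between the sexes were not tested, and each male value rests on 1 mouse against 1. Slc2a1 in the cKO against control had a log2 difference of 0.57 in females and -0.27 in males, and in the cHet against control 0.37 in females and -0.038 in males. Gli2 in the cKO against control had 0.36 in females and -0.12 in males. Smo in the cHet against control had 0.11 in females and -0.21 in males.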

How the results depend on the processing

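No paired analysis was possible because each mouse has its own number in the titles and no label says which mice formed a set. No result changed direction where it had passed. In the cKO against control, the count of members that passed, 1 (Sfrp5), which is also the count of perineurial and barrier genes, was 0 without the libraries with conflicting labels and 0 without those high in neuron, muscle, adipocyte or perineurial markers, and 0 to 1 without any 1 library. In the cKO against cHet both counts, 1, were 0 with no minimum, with same sum, median of ratios or quantile scaling, with 2 groups only, with sex as a covariate and without each of those sets, and 0 to 1 without any 1 library. Of the hedgehog pathway genes, 2 passed in the cKO against control; the count was 1 with no minimum, median of ratios, 2 groups only or sex as a covariate, 0 without each of those sets, and 0 to 2 without any 1 library. In the cKO against cHet 1 passed; the count was 0 with no minimum or median of ratios, 2 with quantile scaling, 0 without the libraries with conflicting labels or high in neuron, muscle or perineurial markers, and 0 to 2 without any 1 library. Over all genes, 235 passed in the cKO against control and 256 in the cKO against cHet, beside 50 and 176 with 2 groups only, 16 and 14 without the libraries high in neuron markers, 23 and 40 (muscle), 19 and 173 (adipocyte), 28 and 11 (perineurial) and 0 and 0 without the libraries with conflicting labels; each of these fits has fewer samples.

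The r of Ptch1 with Gli1, 0.90, was 0.73 without the libraries with conflicting labels (adjusted p = 0.600, exact permutation), 0.88 without those high in neuron markers (adjusted p = 0.225, exact permutation) and 0.73 without those high in perineurial markers (adjusted p = 0.437, exact permutation), and 0.86 to 0.94 without any 1 library. Same-sum scaling moved the median of all genes to -0.08 in the cKO against control and to -0.12 in the cKO against cHet, and the Sfrp5 difference from cHet to 0.50. Depth is unknown, so that Hhip, Gli2 and Gli3, at or near 1 TPM, bear no statement on small changes. The causes of lost calls were not tested.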

Other observations

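Also present in the nerve were Disp1 and Gas1, which did not pass in the cKO against control by limma. Disp1, which releases the ligands from producing cells, was at 42.1, 37.2 and 37.6 TPM in the cKO nerves, 37.5, 42.4 and 41.3 TPM in the cHet nerves and 39.4, 34.5 and 42.1 TPM in the control nerves, so that the groups overlapped. Gas1, a hedgehog co-receptor, spread from 7.90 to 17.0 TPM in the cKO, from 7.81 to 21.7 TPM in the cHet and from 8.67 to 29.5 TPM in the control. Ihh, another hedgehog ligand, was below the minimum mean and was not tested. It stayed below 1 TPM in every nerve, at 0.184 to 0.343 TPM in the cKO, 0.159 to 0.288 TPM in the cHet and 0.0812 to 0.433 TPM in the control.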
